A study of Homo sapiens with 6 samples.

Results

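The 31 genes described here encode the enzymes of sterol synthesis (17 genes), the enzymes of fatty acid synthesis (8 genes), the regulators of the SREBP transcription factors (5 genes) and the sterol carrier STARD4. They were taken by gene symbol from a table of 16809 human genes, and all 31 were found. The libraries came from CAL-27, an established line of human tongue squamous carcinoma, as 3 control libraries (labelled normal control) and 3 libraries of the same line after 24 h with elesclomol-Cu (ES-Cu). Elesclomol is an ionophore that carries copper into cells, and the submitters mixed it with copper in equal ratio to study cuproptosis, a form of cell death that depends on copper. No dose, vehicle or genetic change is named for either group, and nothing in the labels separates culture replicates from repeat libraries of one culture, so each p-value below covers only the scatter among these libraries, which may be technical.

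Cholesterol and fatty acids are built in the cytosol and endoplasmic reticulum from acetyl-CoA. SREBF1 and SREBF2 encode SREBPs, factors made as membrane-bound precursors. The escort protein SCAP carries them to the Golgi, where proteases release the active part, and the anchor proteins encoded by INSIG1 and INSIG2 hold SCAP back in the endoplasmic reticulum when sterols are plentiful. The SREBF2 product acts mainly on sterol genes and the SREBF1 product mainly on fatty acid genes, and INSIG1 is itself a target of SREBPs.

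Expression was given as TPM, a share of each library corrected for gene length, so that levels of different genes within a library can be compared. TPM keeps no read total, and the depth of each library is unknown. Because TPM adds up to one total, a gain in abundant genes can lower the share of all others. The median of the 11927 tested genes had a log2 fold change of -0.50 in ES-Cu, against 0.0037 after median-of-ratios scaling and -0.074 after quantile normalization. A gene is therefore said below to rise or fall only where limma called it (adjusted p under 0.05, Benjamini-Hochberg over all tested genes) with one sign on the deposited scale and in both other scalings. Fold changes are on the log2(TPM + 1) scale as deposited, with their standard error (SE), and means are given ± SD with n = 3 per group.

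The promoters of the 3 members that rose and of the largest faller among the enzymes and among the regulators are shown because these genes carry the pattern described below. Each window runs from 250 bases before to 50 after a RefSeq start site (GRCh38.p14), printed 5′ to 3′ on the gene's strand. Capitals mark matches on either strand to CCAAT, the core bound by NF-Y, a usual partner of SREBPs, and to CACGTG, an E-box. INSIG1 (Entrez 3638) was read from chr7:155297628-155297927, plus strand. HMGCS1 (Entrez 3157) has 2 windows, and the one with CCAAT is shown, read from chr5:43313363-43313662, minus strand. MSMO1 (Entrez 6307) was read from chr4:165327419-165327718, plus strand. MVK (Entrez 4598) was read from chr12:109573544-109573843, plus strand. SREBF1 (Entrez 6720) was read from chr17:17836937-17837236, minus strand.
INSIG1: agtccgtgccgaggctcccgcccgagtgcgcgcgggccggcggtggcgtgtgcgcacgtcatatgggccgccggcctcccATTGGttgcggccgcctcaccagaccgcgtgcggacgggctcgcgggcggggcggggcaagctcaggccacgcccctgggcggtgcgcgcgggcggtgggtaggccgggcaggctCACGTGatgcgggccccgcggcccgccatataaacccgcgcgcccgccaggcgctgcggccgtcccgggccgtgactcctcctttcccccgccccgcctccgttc
HMGCS1: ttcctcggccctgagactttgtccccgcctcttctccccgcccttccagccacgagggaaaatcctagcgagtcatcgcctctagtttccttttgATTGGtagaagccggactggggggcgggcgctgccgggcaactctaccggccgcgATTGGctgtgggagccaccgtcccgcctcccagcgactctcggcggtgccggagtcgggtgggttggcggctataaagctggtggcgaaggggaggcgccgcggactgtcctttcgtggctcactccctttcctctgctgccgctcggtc
MSMO1: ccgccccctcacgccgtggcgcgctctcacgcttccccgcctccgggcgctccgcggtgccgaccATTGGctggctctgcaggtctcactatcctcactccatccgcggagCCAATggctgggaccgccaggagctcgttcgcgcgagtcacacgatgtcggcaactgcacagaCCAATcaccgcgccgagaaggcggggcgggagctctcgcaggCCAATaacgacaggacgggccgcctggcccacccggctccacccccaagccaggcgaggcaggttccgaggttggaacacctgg
MVK: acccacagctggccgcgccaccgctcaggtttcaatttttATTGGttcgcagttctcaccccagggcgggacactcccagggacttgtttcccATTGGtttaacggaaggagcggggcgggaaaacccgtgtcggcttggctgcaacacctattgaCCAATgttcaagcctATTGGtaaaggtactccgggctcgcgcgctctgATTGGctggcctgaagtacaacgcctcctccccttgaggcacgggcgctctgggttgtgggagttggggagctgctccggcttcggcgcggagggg
SREBF1: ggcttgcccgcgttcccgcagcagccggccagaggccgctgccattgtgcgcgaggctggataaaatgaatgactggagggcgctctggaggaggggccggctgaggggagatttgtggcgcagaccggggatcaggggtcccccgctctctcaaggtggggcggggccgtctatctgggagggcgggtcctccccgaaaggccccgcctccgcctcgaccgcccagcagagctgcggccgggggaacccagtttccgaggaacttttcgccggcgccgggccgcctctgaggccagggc

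CCAAT stood once in the INSIG1 window, 2 times in that of HMGCS1, 4 times in that of MSMO1 and 5 times in that of MVK, and not in that of SREBF1. Genes that rose and a gene that fell thus both carried it. Over all members, 28 had windows that were read, 39 in all, and 21 of the 28 had CCAAT in at least 1 window. No window was read for FDFT1, SQLE and FASN. Member windows on 1 chromosome were left out, while the count over all windows left out no chromosome. The shares below thus rest on sets that were not chosen alike. CCAAT was found in 25 of the 39 windows (64.1%), against 34.6% of all 35116 windows. The E-box was in 12.8% of the members' windows and 7.26% of all. The members with it were LSS, SC5D, SCAP and INSIG1, of which INSIG1 rose and SCAP fell. The letters TCACNCCAC, a form of the sterol regulatory element, were in 1 member window, that of SREBF2, and in 1.13% of all windows. The windows share bases where a gene has several starts, and a match is a description of letters, not a measured site.

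**Figure D1:**
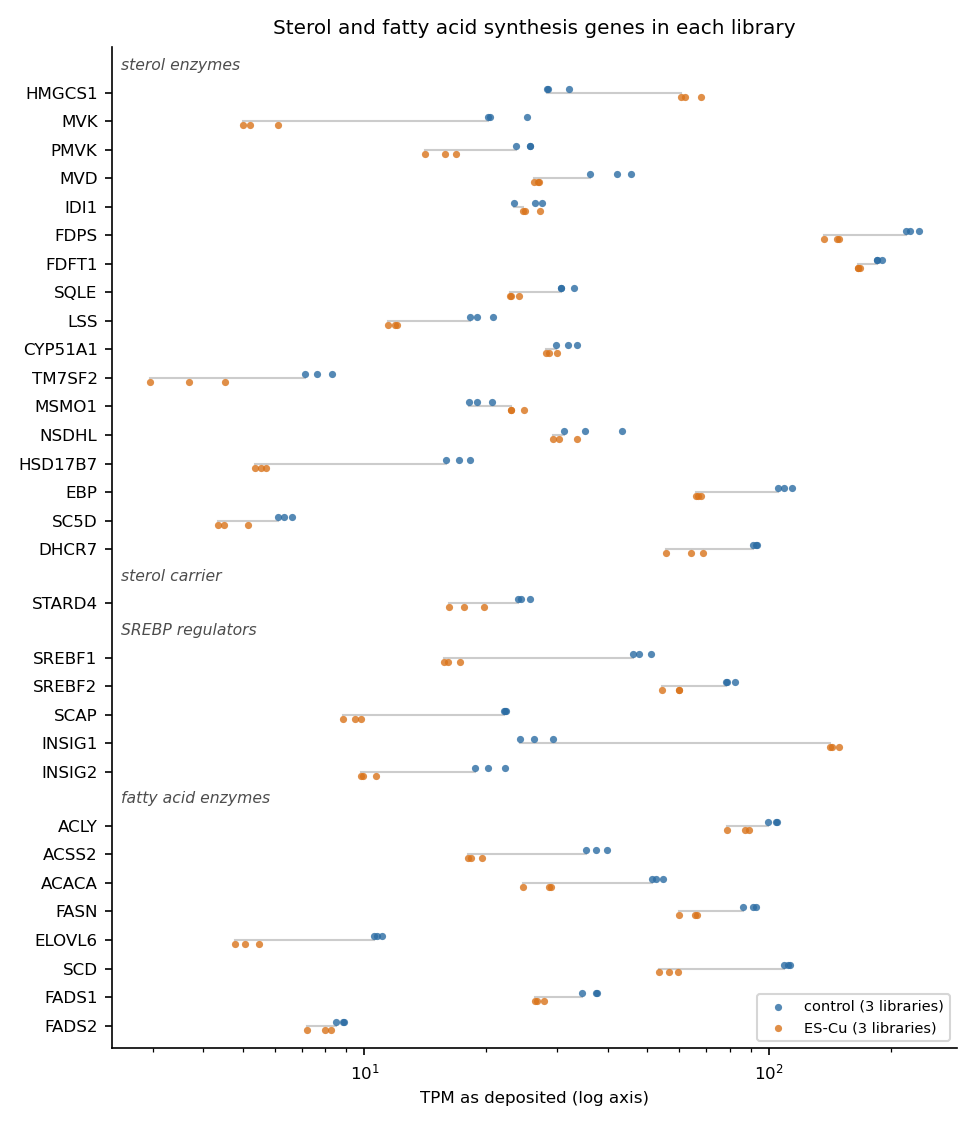
TPM of the 31 genes on a log axis, 1 row per gene, with 3 control libraries (blue) and 3 ES-Cu libraries (orange) as points and a grey line joining the lowest value of each group. INSIG1, HMGCS1 and MSMO1 lie to the right in ES-Cu, and 25 genes lie wholly to the left.

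On the deposited scale 3 of the 31 members were called higher and 24 lower in ES-Cu, against 13.6% and 70.0% of the 11927 tested genes. In all 3 scalings 3 members rose (INSIG1, HMGCS1 and MSMO1) and 10 fell, or 9.68% and 32.3%, against 13.5% and 31.2% of tested genes. The shares of the whole set were thus close to those of all genes, and the median of the 31 members, -0.56, lay 0.053 below that of the tested genes. Control and ES-Cu libraries did not overlap for 28 members, with ES-Cu lower in 25 and higher in 3. Among tested genes, ES-Cu lay wholly lower in 70.3% and wholly higher in 14.0%.

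The members that passed in all scalings were spread over 3 roles. The SREBP regulators held 1 riser and 3 fallers among 5 genes, the fatty acid enzymes 0 and 4 among 8, and the sterol enzymes 2 and 3 among 17. The median log2 fold change was -0.94 for the regulators, -0.71 for the fatty acid enzymes and -0.56 for the sterol enzymes. Set against the median gene these were lower by 0.44, 0.20 and 0.053. Differences between the roles were not tested, since the members and roles were chosen with earlier results known, and their genes share the same libraries. The sums that follow are on the deposited scale and were not rescaled. On that scale the median tested gene had a log2 fold change of -0.50. Summed, the sterol enzymes went from 0.0926% ± 0.000495 to 0.0710% ± 0.000664 of a library. The fatty acid enzymes went from 0.0450% ± 0.000529 to 0.0292% ± 0.00153. The regulators went from 0.0197% ± 0.000445 to 0.0238% ± 0.000619, the one role whose sum was higher in ES-Cu, with INSIG1 as its only member called higher.

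**Figure D2:**
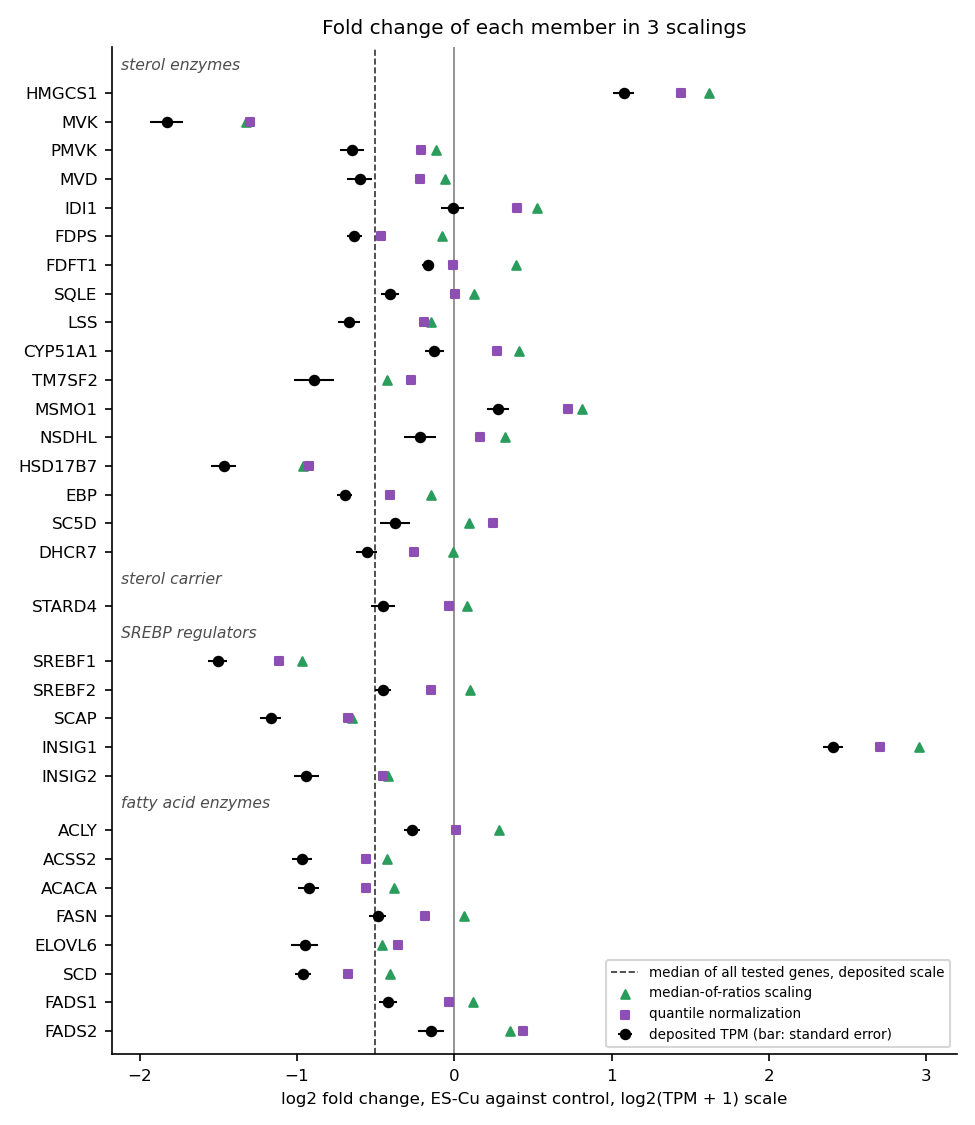
Log2 fold change of each gene, ES-Cu against control, as deposited (black, bar = SE), after median-of-ratios scaling (green triangles) and after quantile normalization (purple squares), with the median of all tested genes dashed at -0.50. INSIG1, HMGCS1 and MSMO1 lie right of 0 in all 3 scalings, while IDI1, CYP51A1, NSDHL and FADS2 lie just left of 0 as deposited and right of it in the others.

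INSIG1, which encodes the anchor that holds SCAP in the endoplasmic reticulum, had the largest change of the set. INSIG1 was at 29.2, 24.2 and 26.2 TPM in control and at 149, 143 and 141 TPM in ES-Cu. Every ES-Cu library lay far above every control library, and the mean was 5.45 times that of control. Its log2 fold change was 2.41 (SE 0.065, adjusted p = 1.94e-10, limma), which ranked 59 from the top among the 11927 tested genes. It was 2.95 after median-of-ratios scaling and 2.71 after quantile normalization.

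INSIG2, the second anchor gene, went the other way. INSIG2 was at 18.8, 22.3 and 20.3 TPM in control and at 10.7, 9.92 and 9.82 TPM in ES-Cu. The groups did not overlap, and the log2 fold change was -0.94 (SE 0.080, adjusted p = 7.74e-07, limma). It was -0.42 after median-of-ratios scaling and -0.46 after quantile normalization. In control the 2 anchor genes stood at like levels, with 1.56, 1.09 and 1.29 times as much INSIG1 as INSIG2 TPM in the 3 libraries. In ES-Cu the ratio was 13.9, 14.4 and 14.4. Multiplying all values of a library by 1 factor leaves such a ratio as it is, while quantile normalization does not. The ratios of SREBF2 to SREBF1 and of HMGCS1 to MVK are given below in the same way. The pairs were set against each other with their changes known, so the ratios are a description, with no test.

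SREBF1, which encodes the SREBP of fatty acid genes, fell. SREBF1 was at 46.0, 47.8 and 51.0 TPM in control and at 16.1, 17.3 and 15.8 TPM in ES-Cu. All ES-Cu libraries were well under the control range, and the mean of control was 2.95 times that of ES-Cu (log2 fold change -1.50, SE 0.063, adjusted p = 5.25e-09, limma). The log2 fold change was -0.97 after median-of-ratios scaling and -1.11 after quantile normalization. RAI1, on the other strand, has exons in GENCODE that overlap those of SREBF1. RAI1 stood at 20.2 ± 1.03 TPM in control and 10.5 ± 0.874 in ES-Cu, and as no strand setting is given, reads in the overlap could belong to either gene. SREBF2, which encodes the SREBP of sterol genes, was the more abundant SREBP gene. SREBF2 was at 78.1, 78.5 and 82.5 TPM in control and at 59.8, 54.4 and 59.9 TPM in ES-Cu. ES-Cu lay below control in all libraries by a smaller step, with a log2 fold change of -0.45 (SE 0.053, adjusted p = 9.70e-06, limma). That is close to the median gene, and SREBF2 was not called after median-of-ratios scaling (0.10, adjusted p = 0.0769, limma). Under quantile normalization SREBF2 was called lower (-0.15, adjusted p = 0.0171, limma). SREBF2 exceeded SREBF1 by 1.70, 1.64 and 1.62 times in the control libraries and by 3.72, 3.15 and 3.80 times in the ES-Cu libraries.

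SCAP, the escort that senses sterols, also fell. SCAP was at 22.3, 22.1 and 22.4 TPM in control and at 9.81, 9.46 and 8.83 TPM in ES-Cu. The control libraries lay close together and ES-Cu stood below all of them, with a log2 fold change of -1.17 (SE 0.069, adjusted p = 5.24e-08, limma). Its log2 fold change was -0.65 after median-of-ratios scaling and -0.68 after quantile normalization. In control the regulators ran, from high to low, SREBF2, SREBF1, INSIG1, SCAP and INSIG2, and the ranges of SCAP and INSIG2 overlapped (22.13 to 22.41 and 18.78 to 22.27 TPM). In ES-Cu the order was INSIG1, SREBF2, SREBF1, INSIG2 and SCAP, where INSIG2 (9.82 to 10.71 TPM) and SCAP (8.83 to 9.81 TPM) did not overlap but nearly met. STARD4, a soluble carrier that moves cholesterol between membranes, followed the median gene. STARD4 was at 24.0, 24.4 and 25.7 TPM in control and at 17.6, 16.1 and 19.8 TPM in ES-Cu. ES-Cu was lower in every library, but the log2 fold change of -0.45 (SE 0.078, adjusted p = 2.14e-04, limma) was 0.081 after median-of-ratios scaling (adjusted p = 0.331). GENCODE places the antisense gene STARD4-AS1 over its exons.

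**Figure D3:**
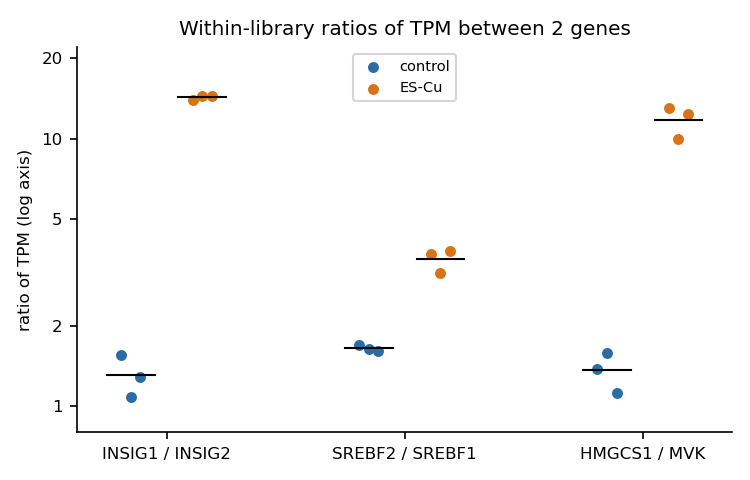
Ratio of TPM between 2 genes within each library on a log axis, with control in blue, ES-Cu in orange and a black line at each group's mean. The ratio of INSIG1 to INSIG2 went from 1.31 to 14.3, that of SREBF2 to SREBF1 from 1.65 to 3.56 and that of HMGCS1 to MVK from 1.37 to 11.8 (means of 3 libraries).

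The first steps of sterol synthesis make mevalonate and turn it into farnesyl diphosphate, and here an early step rose and a later one fell. HMGCS1, the cytosolic synthase that makes HMG-CoA, rose. HMGCS1 was at 28.2, 32.1 and 28.4 TPM in control and at 67.8, 60.6 and 61.9 TPM in ES-Cu. All ES-Cu libraries stood near 2 times the control values (mean ratio 2.15), with a log2 fold change of 1.08 (SE 0.066, adjusted p = 6.88e-08, limma). For HMGCS1 the log2 fold change was 1.62 after median-of-ratios scaling and 1.44 after quantile normalization. GENCODE places the antisense gene AC114947.2 over exons of HMGCS1. MVK, mevalonate kinase, showed the largest fall of all 31 members. MVK was at 20.4, 20.2 and 25.2 TPM in control and at 5.22, 6.10 and 5.01 TPM in ES-Cu. The control mean was 4.03 times that of ES-Cu, and the log2 fold change of -1.83 (SE 0.10, adjusted p = 3.78e-08, limma) ranked 126 from the bottom of the 11927 tested genes. For MVK the log2 fold change was -1.32 after median-of-ratios scaling and -1.30 after quantile normalization. The exons of MVK overlap those of MMAB, a cobalamin enzyme gene on the other strand, which stood at 45.4 ± 4.35 TPM in control and 19.1 ± 0.612 in ES-Cu. Reads in that overlap cannot be told apart without strand. HMGCS1 exceeded MVK by 1.38, 1.59 and 1.13 times in control and by 12.998, 9.94 and 12.3 times in ES-Cu.

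The other mevalonate steps lay between these ends. PMVK, the kinase after MVK, was at 25.0 ± 1.14 TPM in control and 15.6 ± 1.40 in ES-Cu (log2 fold change -0.65), and MVD, the decarboxylase, at 41.2 ± 4.80 TPM in control and 26.7 ± 0.437 in ES-Cu (-0.60). Both were called lower as deposited and under quantile normalization, but not after median-of-ratios scaling (adjusted p = 0.143 and 0.506, limma). IDI1, the isomerase, was the member that moved least. IDI1 was at 26.4, 27.4 and 23.5 TPM in control and at 24.6, 24.9 and 27.1 TPM in ES-Cu. The groups overlapped. Its log2 fold change of -0.011 (adjusted p = 0.886, limma) became 0.53 and 0.40 in the other scalings, where it was called higher. FDPS, which makes farnesyl diphosphate, was the most abundant member in control, with 225 ± 8.55 TPM in control and 144 ± 6.94 in ES-Cu. FDPS was called lower as deposited (-0.64) and under quantile normalization (-0.46), but not after median-of-ratios scaling (-0.081, adjusted p = 0.189, limma). GENCODE names 8 pseudogenes after FDPS.

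The 3 enzymes from farnesyl diphosphate to lanosterol, the first sterol, gave no call of one sign in all scalings. FDFT1, squalene synthase, was at 187 ± 3.16 TPM in control and 167 ± 1.07 in ES-Cu, next to FDPS in control and the highest member in ES-Cu. Its log2 fold change of -0.17 turned to 0.39 after median-of-ratios scaling, called in both. SQLE, the squalene epoxidase and a rate-limiting step, was at 31.4 ± 1.41 TPM in control and 23.4 ± 0.655 in ES-Cu (-0.41 as deposited, 0.13 after median-of-ratios scaling, adjusted p = 0.0596, limma). LSS, lanosterol synthase, was at 19.3 ± 1.34 TPM in control and 11.8 ± 0.321 in ES-Cu (-0.67 as deposited, -0.15 after median-of-ratios scaling, adjusted p = 0.0763).

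From lanosterol to cholesterol, 1 of 8 enzymes rose and 2 fell. MSMO1, the oxidase that starts removal of the C4 methyl groups, rose by a small step. MSMO1 was at 19.0, 20.7 and 18.2 TPM in control and at 24.8, 23.0 and 23.0 TPM in ES-Cu. The lowest ES-Cu value lay above the highest control value, with a log2 fold change of 0.28 (SE 0.068, adjusted p = 2.70e-03, limma), and 0.81 and 0.72 in the other scalings. HSD17B7, the ketosteroid reductase of the same demethylation, fell. HSD17B7 was at 15.9, 18.2 and 17.1 TPM in control and at 5.71, 5.54 and 5.38 TPM in ES-Cu. Its 3 ES-Cu values lay close together at about 5.54 TPM, and the control mean was 3.08 times as high (log2 fold change -1.47, SE 0.081, adjusted p = 3.25e-08, limma). For HSD17B7 the log2 fold change was -0.96 after median-of-ratios scaling and -0.92 after quantile normalization. HSD17B7 has 2 named pseudogenes, among which reads could have been split. NSDHL, the dehydrogenase acting between these enzymes, had overlapping groups, with 36.5 ± 6.20 TPM in control and 30.97 ± 2.21 in ES-Cu, and its log2 fold change of -0.22 was not called (adjusted p = 0.0668, limma). NSDHL was called lower with a replicate block (adjusted p = 0.0362) and without the control library of replicate 3 (-0.33, adjusted p = 8.48e-03). After median-of-ratios scaling NSDHL was at 0.32 and was called higher (adjusted p = 0.0229). The 3 genes of the C4 demethylation thus had deposited log2 fold changes of 0.28, -0.22 and -1.47.

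EBP, the isomerase that moves the sterol double bond, fell. EBP was at 114, 109 and 105 TPM in control and at 68.0, 66.2 and 66.7 TPM in ES-Cu. The groups were well apart, with a log2 fold change of -0.70 (SE 0.046, adjusted p = 1.16e-07, limma). After median-of-ratios scaling it was only -0.15 (adjusted p = 0.0144, limma), still called. CYP51A1, lanosterol demethylase, had overlapping groups with 31.7 ± 1.90 TPM in control and 28.9 ± 0.907 in ES-Cu, and its log2 fold change of -0.13 (adjusted p = 0.0730, limma) became 0.41 and 0.27, called higher, in the other scalings. Without the control library of replicate 3 it was called lower as deposited (-0.17, adjusted p = 0.0335). Other genes overlap the exons of CYP51A1 on both strands, and 3 pseudogenes are named after it. TM7SF2, a sterol reductase, was at 7.70 ± 0.598 TPM in control and 3.72 ± 0.781 in ES-Cu and was called lower as deposited (-0.89) and after median-of-ratios scaling (-0.43), but not under quantile normalization (-0.28, adjusted p = 0.0571, limma). It overlaps VPS51 on the same strand, a gene at 78.5 ± 2.73 TPM in control and 46.4 ± 0.252 in ES-Cu, and reads in the overlap could belong to either. SC5D, the desaturase before the last steps and the lowest member in control, was at 6.36 ± 0.246 TPM in control and 4.67 ± 0.437 in ES-Cu. Its log2 fold change of -0.38 became 0.24 under quantile normalization, called both times. DHCR7, which makes the last reduction on one route to cholesterol, was at 92.5 ± 1.29 TPM in control and 62.8 ± 6.67 in ES-Cu and sat near the median gene (-0.56 as deposited, -0.0058 after median-of-ratios scaling, adjusted p = 0.932, limma).

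**Figure D4:**
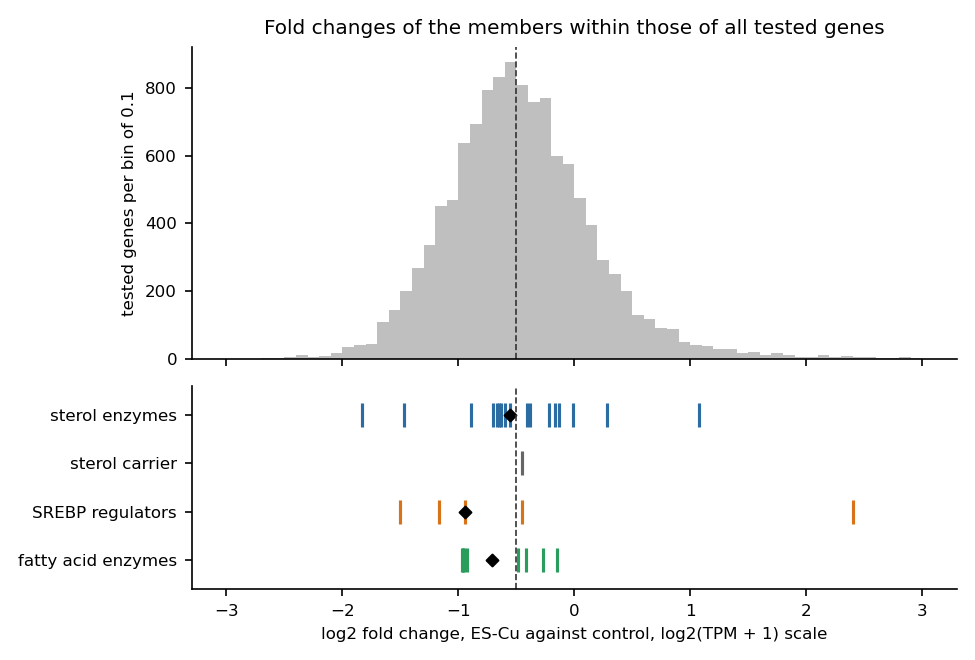
Histogram of the log2 fold changes of all tested genes (top, drawn without the tails) above the values of the members by role (ticks, with a diamond at each role's median); the dashed line marks the median tested gene at -0.50. The fatty acid enzymes form 2 bunches, 4 genes from -0.97 to -0.93 and 4 from -0.49 to -0.15, while the sterol enzymes spread from -1.83 to 1.08.

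Among the fatty acid enzymes none was called higher as deposited and 7 of 8 were called lower. On that scale 13.6% of all tested genes were called higher and 70.0% lower, so most genes of any kind were called lower. Acetyl-CoA for lipid synthesis comes from citrate through ACLY or from acetate through ACSS2, and only the second fell in all scalings. ACSS2 was at 39.7, 35.2 and 37.3 TPM in control and at 19.5, 18.1 and 18.4 TPM in ES-Cu. The ES-Cu values were about 0.498 times the control mean (log2 fold change -0.97, SE 0.064, adjusted p = 1.19e-07, limma). For ACSS2 the log2 fold change was -0.43 after median-of-ratios scaling and -0.56 after quantile normalization. ACLY was at 103 ± 2.71 TPM in control and 85.1 ± 5.55 in ES-Cu (-0.27 as deposited, 0.28 after median-of-ratios scaling, called in both). Whether these 2 genes differ in their change was not tested.

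ACACA, acetyl-CoA carboxylase, which commits carbon to fatty acids, fell. ACACA was at 51.4, 54.7 and 52.5 TPM in control and at 28.5, 24.7 and 28.9 TPM in ES-Cu. ES-Cu lay far below control (log2 fold change -0.93, SE 0.066, adjusted p = 2.13e-07, limma). For ACACA the log2 fold change was -0.38 after median-of-ratios scaling and -0.56 after quantile normalization. FASN, the synthase that uses its product, was at 90.0 ± 3.55 TPM in control and 63.9 ± 3.65 in ES-Cu. Its log2 fold change of -0.49 was close to the median gene as deposited and was 0.063 after median-of-ratios scaling (adjusted p = 0.255, limma). Under quantile normalization FASN was called lower (-0.18, adjusted p = 8.09e-03, limma).

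Elongation and desaturation genes divided in the same way. ELOVL6, which lengthens the product of FASN, fell. ELOVL6 was at 10.6, 10.8 and 11.1 TPM in control and at 5.50, 4.79 and 5.06 TPM in ES-Cu. No ES-Cu library came near the control range (log2 fold change -0.95, SE 0.085, adjusted p = 1.23e-06, limma). For ELOVL6 the log2 fold change was -0.46 after median-of-ratios scaling and -0.36 after quantile normalization. SCD, which introduces the first double bond, fell as well. SCD was at 109, 113 and 112 TPM in control and at 56.5, 53.6 and 59.6 TPM in ES-Cu. It was the most abundant fatty acid gene in control, and its ES-Cu values stood at about 0.510 of that level (log2 fold change -0.96, SE 0.050, adjusted p = 2.16e-08, limma). For SCD the log2 fold change was -0.41 after median-of-ratios scaling and -0.67 after quantile normalization. GENCODE names 1 pseudogene after SCD.

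The desaturases of polyunsaturated fatty acids, FADS1 and FADS2, had no call of one sign. FADS1 was at 36.5 ± 1.73 TPM in control and 27.0 ± 0.764 in ES-Cu (-0.42 as deposited, 0.12 after median-of-ratios scaling, adjusted p = 0.0667, limma). FADS2 was at 8.51, 8.90 and 8.87 TPM in control and at 8.25, 8.0 and 7.23 TPM in ES-Cu. For FADS2 the groups were just apart, with a log2 fold change of -0.15 (SE 0.084, adjusted p = 0.124, limma), and it was called higher in both other scalings (0.35 and 0.43). These neighbouring genes overlap on opposite strands, and FADS2 also overlaps FEN1.

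Genes around the pathway were described from 6 further lists of lipid genes. Sterol uptake and trafficking had 15 tested genes, of which 2 rose and 5 fell in all scalings (median log2 fold change -0.51). NPC1, which exports cholesterol from lysosomes, rose from 25.6 ± 0.722 to 52.8 ± 1.55 TPM (1.02), and GRAMD1A, which carries cholesterol from the plasma membrane, fell (-1.35). In the list of sterol efflux, LXR factors and esterification, 2 of 9 rose and 4 fell (median -0.65). SOAT1, which esterifies cholesterol, rose from 43.7 ± 2.25 to 63.0 ± 4.24 TPM (0.52). The oxysterol receptor gene NR1H3 (-1.14) and the exporter gene ABCG1 (-1.12) fell.

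The list of SREBP processing and turnover had the highest median, -0.26, which is 0.24 above the median gene, and 7 of its 20 genes rose and 4 fell. The vesicle coat gene SEC24A (1.00) and the ubiquitin ligase gene FBXW7 (0.85), whose product marks active SREBPs for degradation, rose. ERLIN2 (-1.45) and the protease gene MBTPS2 (-1.14), whose product makes the second cut of SREBPs, fell. Of 18 genes of the non-sterol isoprenoid branch, which uses farnesyl diphosphate for ubiquinone, dolichol and protein prenylation, 2 rose and 7 fell (median -0.58). COQ5, a ubiquinone methyltransferase, fell from 35.0 ± 0.560 to 9.57 ± 1.26 TPM (-1.78), and FNTB (-1.54) fell too, while RABGGTB (0.58) and DHDDS (0.19) rose.

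Fatty acid activation, elongation and glycerolipid synthesis held 4 risers and 10 fallers among 30 genes (median -0.53). The malic enzyme gene ME1, a source of NADPH, rose from 42.9 ± 1.71 to 74.8 ± 1.99 TPM (0.79), and ELOVL5, an elongase of polyunsaturated fatty acids, from 120.0 ± 0.609 to 197 ± 7.81 TPM (0.71). SCD5 (-1.56) and LPIN3 (-1.55) fell. In fatty acid oxidation 1 of 22 rose and 9 fell (median -0.62). CPT2 (-1.33) and ECI2 (-1.15) fell, PPARD rose (0.22), and ACAA2 was not called, going from 1.20 ± 0.280 to 0.850 ± 0.275 TPM (-0.25) (adjusted p = 0.169, limma). These counts are to be read against the 13.5% and 31.2% of tested genes that rose and fell.

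**Figure D5:**
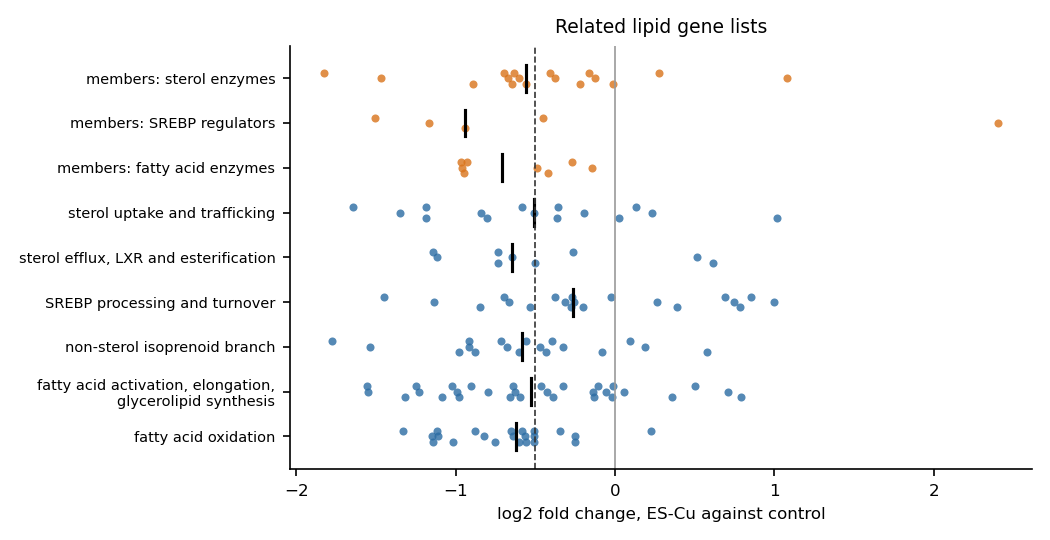
Log2 fold change as deposited for each tested gene (points) of the member roles (orange) and of 6 related lists (blue), with black bars at the medians, a dashed line at the median tested gene (-0.50) and a grey line at 0. The medians of the related lists run from -0.65 to -0.26, and INSIG1 lies to the right of every other point.

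Library facts that bear on these values were few. Each library had 14959 to 15051 genes above 0. The 8 squamous epithelial markers were all above 1 TPM in at least 1 library and summed to 2521 to 2643 TPM in control and 2927 to 2977 in ES-Cu. Summed levels of other markers were low, at 11.1 to 11.5 TPM in control and 4.46 to 5.24 in ES-Cu for 5 fibroblast genes, 7.14 to 7.47 and 1.28 to 1.87 for 3 endothelial genes (mostly CDH5), and at most 1.16, 0.34 and 0.25 in any library for leukocyte, adipocyte and hepatocyte genes. Among the 8 squamous markers SFN and KRT6A rose, and TP63 and CDH1 fell. The fibroblast and endothelial sums were lower in ES-Cu and the squamous sum was higher. SFN went from 640 ± 31.4 to 1233 ± 19.1 TPM, a larger gain than that of the squamous sum. The other squamous markers together were thus lower in ES-Cu. The part of these markers in the results was not tested. In bulk RNA, fewer cells and less RNA per cell cannot be told apart. Transcript GC content ran from 37.2% (INSIG2) to 65.3% (FASN) among the members, with a median of 54.1% against 50.1% for all tested genes. With each library's GC trend removed, the 13 members that rose or fell were still called with the same sign.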

How the data were processed

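Total RNA of 6 CAL-27 libraries was read as single-end BGISEQ-500 sequence, per the labels' protocols. The deposited values are TPM computed by the authors. HISAT and Bowtie2 (no versions) and the build GRCm38.p6, a mouse build, appear in the submitters' processing notes, although the genes are human, and the counter and its strand setting are not given in the sources used here. Depth is therefore unknown.

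Tests used limma 3.58.1 in R 4.3.3 on log2 values with a pseudocount of 1, over the genes whose mean reached 1 TPM (mean-variance trend, two-sided, Benjamini-Hochberg, no block). The members, roles and lists were chosen with earlier results of these data known, so lists are described by counts and medians only. The naming rule takes all 31 members, with values in every library for the regulators, STARD4, the enzymes called with one sign in 3 scalings and the extremes of each role, and the 2 highest and 2 lowest genes of each related list; some genes it takes are not reported here. The labels do not say whether replicate numbers pair the libraries, and the main fit did not pair them. Alternatives were 2 scalings, removal of the 20 highest genes, pseudocounts of 0.1 and 0.5, 2 filters, no trend, a replicate block, leaving out each library and, added after the data were seen, GC trend removal. GENCODE 29 gave GC content and overlaps, and RefSeq (GRCh38.p14) the promoters. On simulated libraries of 11927 genes for ES-Cu against control, limma recovered 50 of 50 genes changed by -1, 49 of 50 by 1, 37 of 50 by -0.5 and 43 of 50 by 0.5 (log2; changed genes drawn above 5 TPM), and called 4 of 11727 unchanged genes; a shift of most genes was not simulated.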

Additional observations from a re-analysis of the deposited data

How the results depend on the processing

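The 3 risers and 10 fallers were chosen by the main fit and 2 of the 16 alternatives, median-of-ratios scaling and quantile normalization. They kept their sign and call in the other 14 (13 of 13 in each). Most of these 14 used the deposited scale that took part in the choice, so they are not independent of it. EBP was near the threshold after GC removal (adjusted p = 0.0455, limma). After median-of-ratios scaling, quantile normalization and GC removal, 4532, 3749 and 4287 tested genes were called higher and 4266, 4756 and 4078 lower. Of the members, 9, 7 and 11 were called higher and 11, 17 and 10 lower, in the same order. The count of 24 lower members became 10 when one sign in all 3 scalings was asked for. In the order median-of-ratios, quantile, 20 highest genes removed and GC removal, the median log2 fold change was -0.0058, -0.19, -0.40 and 0.019 for the sterol enzymes, -0.16, -0.27, -0.55 and -0.11 for the fatty acid enzymes and -0.42, -0.46, -0.80 and -0.47 for the regulators, whose median was -1.0002 with a pseudocount of 0.1. Leaving out 1 library gave medians of -0.60 to -0.47 for the sterol enzymes and -0.997 to -0.88 for the regulators. With the replicate block 25 members (NSDHL added) were called lower and 3 higher; correlations of same-numbered libraries' deviations were 0.021, -0.034 and 0.011, and not every library correlated best with its own number. The sign turned to positive after median-of-ratios scaling for IDI1 (0.53), FDFT1 (0.39), SQLE (0.13), CYP51A1 (0.41), NSDHL (0.32), SC5D (0.093), SREBF2 (0.097), STARD4 (0.081), ACLY (0.28), FASN (0.063), FADS1 (0.12) and FADS2 (0.35). Quantile normalization turned IDI1 (0.40), SQLE (0.0017), CYP51A1 (0.27), NSDHL (0.16), SC5D (0.24), ACLY (0.012) and FADS2 (0.43). GC removal turned PMVK (0.019), MVD (0.13), IDI1 (0.34), FDFT1 (0.28), CYP51A1 (0.22), NSDHL (0.27), DHCR7 (0.074), SREBF2 (0.18), ACLY (0.27), FASN (0.25), FADS1 (0.17) and FADS2 (0.43). Without the 20 highest genes, IDI1 (0.14) and CYP51A1 (0.028) turned, and IDI1 ranged from -0.074 to 0.033 when 1 library was left out. The cause of these turns was not tested. Depth limits could not be computed from TPM.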
